A study of Mus musculus with 6 samples.

Results

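The *Lhfp* tetraspan family comprised 6 genes, *Lhfp* and its paralogs *Lhfpl1*, *Lhfpl2*, *Lhfpl3*, *Lhfpl4* and *Lhfpl5*. They were taken by gene name from RNA-seq tables that hold 48734 named genes, and each name had 1 row per table. Each member encodes a protein that spans the membrane with a bundle of helices, in the same broad fold as the claudins and the peripheral myelin protein PMP22. *Lhfp* was found as the partner of the HMGIC gene in a lipoma translocation. *Lhfpl5* belongs to the mechanotransduction complex of the hair cells of the inner ear, and *Lhfpl4* and *Lhfpl3* encode partners of GABA-A receptors, *Lhfpl4* acting with neuroligin 2 at inhibitory synapses. A mutation of *Lhfpl2* causes malformation of the reproductive tract in mice, and little is known of *Lhfpl1*.

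The tables came from 3 libraries labelled bone, described as femoral cortical bone freed of marrow, and 3 labelled osteoblasts. The osteoblasts were grown from marrow stromal cells of the femur and kept for 8 days in medium with ascorbic acid (50 µg/ml), beta-glycerophosphate (10 mM) and dexamethasone (10 nM). All 6 libraries were of the inbred Collaborative Cross strain CC016/GeniUnc, with no deletion of *Lhfp* or other allele named, and the study's methods give 3 mice of unstated age. Bone and marrow may therefore have come from the same mice, but the labels do not tie the replicate numbers to mice. Stromal cultures of marrow can hold macrophages beside osteoblasts. The question asked of these libraries was which paralogs were transcribed where *Lhfp* was, and at what level.

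The libraries did not part by their labels. *Hbb-bt*, a beta globin gene of red cells, was above 1000 FPKM in bone 3 (34838) and in osteoblasts 2 (34268) and 3 (48650), and it was 7.05, 3.58 and 3.43 FPKM in bone 1 and 2 and osteoblasts 1. FPKM is a count of fragments scaled by transcript length and by the aligned fragments of the library. *Sost*, a gene of osteocytes, the cells embedded in bone, was at 0.176 and 0.0661 FPKM in bone 1 and 2 and at 18.8 in bone 3. In osteoblasts 1, 2 and 3 *Sost* was at 0.198, 22.7 and 15.8 FPKM, so that this osteocyte gene was high in 2 libraries labelled as cultured osteoblasts. *Dmp1*, also an osteocyte gene, went the other way. It was at 104, 50.0 and 24.2 FPKM in bone 1, 2 and 3 and 127, 22.5 and 22.9 in osteoblasts 1, 2 and 3. *Capg* had the order of *Dmp1*, and *Phex*, *Pdpn* and *Irx5* had neither order. Features without a name held 71.5% of the FPKM of bone 2 and 65.0% of that of osteoblasts 1, and at most 30.7% elsewhere. Aligned bases ranged from 2.03 to 3.39 Gb per library, and a 1 kb transcript hit by 3 read pairs would have an FPKM of 0.133 to 0.222. This value was used as the floor of detection, and it covers counting error only. Every library is named by its deposited label and replicate number throughout (bone 1 to 3 and osteoblasts 1 to 3), and *Hbb-bt* is stated beside the values that move with it. Whether each label names the material of its library was not tested, and every difference between bone and osteoblasts below is one between deposited labels.

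The 6 genes lie on 6 chromosomes. In the GRCm38 coordinates of the tables, *Lhfp* (MSTRG.39381) spans 53041528 to 53261679 on the plus strand of Chr. 3, and *Lhfpl2* (MSTRG.18440) spans 94057796 to 94195409 on the plus strand of Chr. 13. *Lhfpl1* (ENSMUSG00000041700) is on the minus strand of Chr. X, *Lhfpl3* (MSTRG.47273) on the plus strand of Chr. 5, *Lhfpl4* (ENSMUSG00000042873) on the minus strand of Chr. 6 and *Lhfpl5* (ENSMUSG00000062252) on the plus strand of Chr. 17. RefSeq lists all 6 as protein-coding.

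By sequence the family falls into sets. Coding sequences of GENCODE vM1 were translated and aligned pairwise. The *Lhfp* protein, of 200 residues, was identical to that of *Lhfpl1* at 63.3% of 199 aligned residues and to that of *Lhfpl2* at 31.6% of 190. Its identity with the products of *Lhfpl3*, *Lhfpl4* and *Lhfpl5* was 28.0 to 30.8%. Among themselves, the products of those 3 genes were 62.0 to 76.1% identical. The paralog most like *Lhfp* in sequence was thus *Lhfpl1*, and *Lhfpl2* was nearly as distant from *Lhfp* as the 3 others were.

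The longest run of identical bases shared by any transcript of *Lhfp* with any transcript of a paralog was 11 to 15 bp. Within the whole family the longest was 28 bp, between *Lhfpl3* and *Lhfpl4*. The reads were of 75 bp, so no read of full length could match a pair of members exactly. The target of the guide RNA with which the study disrupted *Lhfp* in other mice is shown because it is the sequence by which *Lhfp* was addressed there. It is given as the guide reads, with the adjacent PAM in capitals, and covers bases 312 to 331 of the *Lhfp* coding sequence.
Lhfp guide target: ccgacacgcagcaacccatcAGG
In *Lhfp* the 20 bases matched without a mismatch on the antisense strand. The closest stretch in any annotated transcript of a paralog had 6 mismatches, in *Lhfpl2*, without a PAM beside it. With an NGG PAM required, the closest paralog stretch had 7 mismatches, in *Lhfpl4*.

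The promoters of the expressed pair are shown because *Lhfp* and *Lhfpl2* were high in the same libraries and low in the same libraries. This is not particular to the pair, since 16.9% of 12112 genes had the same 3 highest libraries as *Lhfp*. They are the 250 bases before 1 annotated transcription start of each gene, from RefSeq on GRCm38.p6, where 5 of the 6 members had an entry. For *Lhfpl2* and *Lhfpl5* that start lies inside the RefSeq gene, which for *Lhfpl2* begins at 94057152, so their stretches do not precede the whole gene. *Lhfp* is at chr3:53041297-53041546 (plus strand) and *Lhfpl2* at chr13:94057546-94057795 (plus strand). Capitals mark GGGCGG or its complement CCGCCC, the core of the GC box.
Lhfp promoter: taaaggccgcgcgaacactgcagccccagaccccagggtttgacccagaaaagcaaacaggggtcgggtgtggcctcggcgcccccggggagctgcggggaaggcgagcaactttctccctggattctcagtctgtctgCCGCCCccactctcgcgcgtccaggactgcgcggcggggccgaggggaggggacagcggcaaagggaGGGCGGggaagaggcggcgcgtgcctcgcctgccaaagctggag
Lhfpl2 promoter: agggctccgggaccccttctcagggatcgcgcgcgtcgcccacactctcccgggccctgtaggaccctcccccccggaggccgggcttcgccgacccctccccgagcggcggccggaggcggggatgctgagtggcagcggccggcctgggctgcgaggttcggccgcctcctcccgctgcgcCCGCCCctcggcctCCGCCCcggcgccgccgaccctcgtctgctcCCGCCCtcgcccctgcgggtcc
*Lhfp* held 2 GC boxes and *Lhfpl2* held 3, and *Lhfpl3*, *Lhfpl4* and *Lhfpl5*, which were barely or not detected, held 1 each. At least 1 GC box was present in 32.7% of 32851 RefSeq stretches of the same length taken in the same way, at least 2 in 16.7% and at least 3 in 8.47%. The G and C content was 69.6% for *Lhfp* and 80.0% for *Lhfpl2*, against 66.4 to 70.8% for the other 3 and a median of 52.4% over all promoters. None of the 5 held TATAAA, the Runx motif TGTGGT, the E box CACGTG or the AP-1 motif TGANTCA on either strand. These were present in 12.4%, 14.0%, 6.02% and 6.75% of all promoters. A match of letters is not evidence of binding, and both detected and undetected members held GC boxes.

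Only 2 of the 6 members, *Lhfp* and *Lhfpl2*, were above the floor for a 1 kb transcript in any library, and both were above it in all 6. *Lhfp* had an FPKM of 49.5, 29.2 and 6.21 in bone 1, 2 and 3 and of 29.1, 7.23 and 7.46 in osteoblasts 1, 2 and 3. *Lhfpl2* had an FPKM of 35.2, 21.5 and 7.84 in bone 1, 2 and 3 and of 32.4, 7.77 and 9.28 in osteoblasts 1, 2 and 3. Both genes were high in bone 1 and 2 and osteoblasts 1, where *Hbb-bt* was below 1000 FPKM, and low in the 3 libraries where it was above. The highest value of *Lhfp* was 7.97 times its lowest, and that of *Lhfpl2* was 4.53 times its lowest. These ranges are of FPKM as deposited and depend on its scaling to all aligned reads. Features without a name held 71.5% of the FPKM of bone 2 and 65.0% of that of osteoblasts 1. The labels overlapped for both genes. In bulk RNA, fewer cells of a type and less RNA per cell cannot be told apart.

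**Figure D1:**
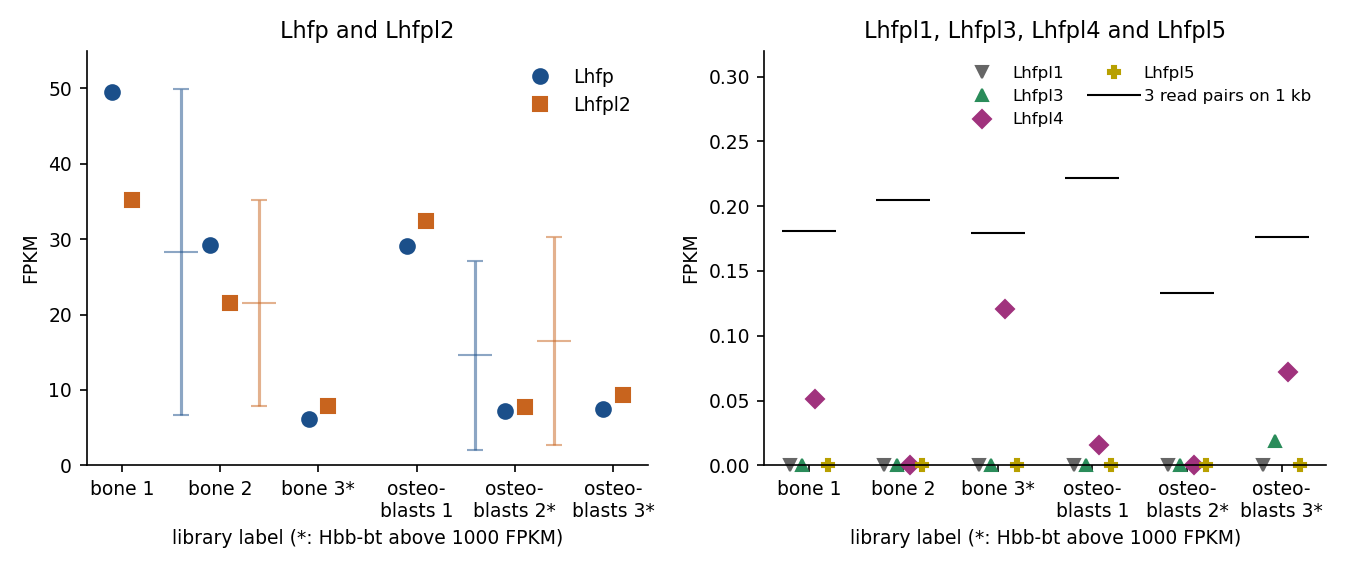
FPKM of the 6 family members by library label, with an asterisk at libraries where *Hbb-bt* was above 1000 FPKM. On the left, points are libraries of *Lhfp* (circles) and *Lhfpl2* (squares), and bars are the mean ± SD of the 3 libraries of a label. On the right, the other 4 members all lie below the black dashes, which mark 3 read pairs on 1 kb in each library (0.133 to 0.222).

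*Lhfpl4*, the GABA-A receptor partner, was the only other member listed above 0 in more than 1 library. Its FPKM was 0.0513, 0 and 0.121 in bone 1, 2 and 3 and 0.0156, 0 and 0.0719 in osteoblasts 1, 2 and 3. All of these were below the floor for a transcript of 1 kb. With the floor set at its longest annotated transcript of 4762 bp, *Lhfpl4* passed in bone 1 and 3 and osteoblasts 3, an alternative chosen after the values were seen. Its coverage over that transcript corresponded to 3.32, 4.66 and 1.42 read pairs in those 3 libraries. The highest value was 1.94% of the FPKM of *Lhfp* in the same library, bone 3.

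*Lhfpl3*, the other receptor partner, was listed at 0 in 5 libraries and at 0.0185 FPKM in osteoblasts 3. *Lhfpl1* and *Lhfpl5* were listed at 0 in all 6 libraries. A count of 0 allows up to 3 read pairs. At the longest annotated transcript this bounds *Lhfpl1* (1830 bp) at 0.200 to 1.58% of the FPKM of *Lhfp* in the same library and *Lhfpl5* (1248 bp) at 0.293 to 2.31%. For *Lhfpl3* only the coding length of 696 bp was annotated, which gives 0.525 to 4.15%. The upper end of each range was in bone 3, where *Lhfp* was lowest. At the shortest annotated transcripts of *Lhfpl1* (397 bp) and *Lhfpl5* (762 bp) the limits would be higher than these. The paralog most identical to *Lhfp*, *Lhfpl1*, was therefore not detectable at this depth in any library.

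As shares of the summed FPKM of the family, *Lhfp* made up 58.4%, 57.6% and 43.8% in bone 1, 2 and 3 and 47.3%, 48.2% and 44.3% in osteoblasts 1, 2 and 3. *Lhfpl2* made up 41.5%, 42.4% and 55.3% in bone and 52.7%, 51.8% and 55.1% in osteoblasts. The other 4 members together made up at most 0.851%, in bone 3. *Lhfp* thus exceeded *Lhfpl2* by FPKM in bone 1 and 2, and *Lhfpl2* exceeded *Lhfp* in the 4 other libraries, osteoblasts 1 with its low *Hbb-bt* among them.

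The order of *Lhfp* and *Lhfpl2* depended on the deposited column. By FPKM the ratio of *Lhfp* to *Lhfpl2* was 1.41, 1.36 and 0.792 in bone 1, 2 and 3 and 0.897, 0.930 and 0.804 in osteoblasts 1, 2 and 3. By coverage, the average read depth along the gene, the ratio was 11.4, 11.3 and 6.97 in bone and 7.79, 7.75 and 6.70 in osteoblasts. By coverage *Lhfp* was therefore above *Lhfpl2* in all 6 libraries. In both columns the ratio was highest in bone 1 and 2.

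**Figure D2:**
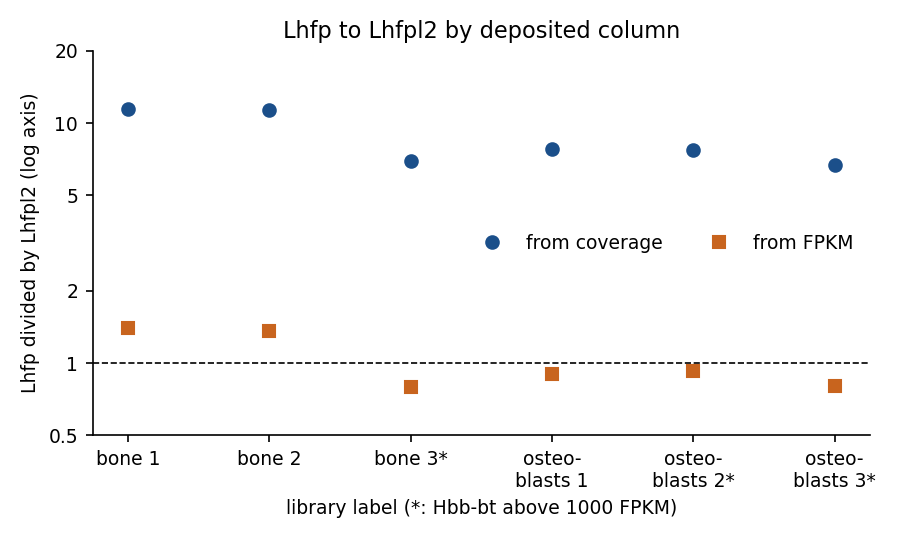
Ratio of *Lhfp* to *Lhfpl2* in each library on a log axis, from coverage (circles) and from FPKM (squares), with equality as the dashed line and an asterisk at libraries with *Hbb-bt* above 1000 FPKM. The coverage ratios lie between 6.70 and 11.4, and the FPKM ratios lie between 0.792 and 1.41 on both sides of equality.

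*Lhfpl2* was unusual in this respect. Its FPKM was 19.7 to 21.3 times its coverage divided by the depth of the library in Gb, against 2.42 to 2.43 times for *Lhfp* and medians of 1.77 to 1.89 times over genes at an FPKM of 1 or more. Between 2.26 and 2.70% of those genes had a value as high as that of *Lhfpl2*. *Lhfpl2* has 5 annotated transcripts of 488 to 4348 bp, while *Lhfp* has 2, of 1932 and 2108 bp. Whether the range of lengths sets the gap between the columns was not tested. The gap was nearly the same in every library, so it bears on *Lhfp* against *Lhfpl2* and little on *Lhfpl2* between libraries.

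The place of *Lhfpl2* among other genes moved with the column too. By FPKM it was above 86.9%, 87.9% and 58.7% of genes at an FPKM of 1 or more in bone 1, 2 and 3. In osteoblasts 1, 2 and 3 it was above 90.4%, 55.9% and 61.8%. By coverage it was above 28.5%, 23.2% and 5.33% of the same genes in bone and 31.1%, 5.18% and 5.97% in osteoblasts. *Lhfp* was above 87.8%, 88.4% and 49.0% by coverage in bone and 85.2%, 51.4% and 52.4% in osteoblasts, each within a few percentage points of its place by FPKM. On either column *Lhfpl2* was placed lower in the 3 libraries with *Hbb-bt* above 1000 FPKM.

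Neither expressed member differed between the labels beyond the spread within them. On the scale of log2(FPKM + 1), *Lhfp* was 4.47 ± 1.46 (SD, n = 3) in bone and 3.68 ± 1.07 (SD, n = 3) in osteoblasts, a difference of -0.80 (exact permutation test, two-sided, p = 0.6). *Lhfpl2* was 4.27 ± 1.03 (SD, n = 3) in bone and 3.85 ± 1.05 (SD, n = 3) in osteoblasts, a difference of -0.42 (exact permutation test, two-sided, p = 0.7). An exact comparison of 3 libraries with 3 cannot give a p below 0.1. The direction of *Lhfpl2* rested on 1 library, since without bone 1 the difference was 0.04. Without bone 3 the difference of *Lhfp* was -1.61, without osteoblasts 1 it was -1.41, and without bone 1 it was -0.21.

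Fitted with limma to 12112 genes whose mean FPKM was 1 or more, *Lhfp* had a log2 fold change of -0.80 (standard error 0.81, limma adjusted p = 0.999) and *Lhfpl2* one of -0.42 (standard error 0.70, limma adjusted p = 0.999). The share of genes called by limma at an adjusted p under 0.05 was 0%, with 17 genes at an unadjusted p under 0.05, and 0 of the 2 family members tested were called. Without bone 3 limma called 77 genes and without osteoblasts 1 it called 300, with neither *Lhfp* nor *Lhfpl2* among them. *Lhfpl1*, *Lhfpl3*, *Lhfpl4* and *Lhfpl5* did not reach the mean FPKM of 1 and were not tested. The median fold change of the genes tested was 0.12 on the log2 scale, and it was -0.03 after scaling to the sum over named genes. *Lhfp* and *Lhfpl2* were lower in osteoblasts under each scaling tried.

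The family as a whole gave the same picture. Its summed FPKM was 84.7, 50.7 and 14.2 in bone 1, 2 and 3 and 61.5, 15.0 and 16.8 in osteoblasts 1, 2 and 3. On the log2 scale the sum differed by -0.64 between osteoblasts and bone (exact permutation test, two-sided, p = 0.7), and by -0.10 without bone 1 and -1.35 without bone 3. The share of *Lhfp* in the sum was 53.3% ± 8.2 (SD, n = 3) in bone and 46.6% ± 2.0 (SD, n = 3) in osteoblasts (exact permutation test, two-sided, p = 0.4). Without bone 3 the difference in share was -11.4 percentage points in place of -6.70, and without bone 1 it was -4.14. By coverage divided by depth, an alternative chosen after seeing the data, the share of *Lhfp* was 85.7 to 91.9% and its difference between the labels -2.0 percentage points. The log2 ratio of *Lhfp* to *Lhfpl2* differed by -0.39 (exact permutation test, two-sided, p = 0.4), and by -0.66 without bone 3, -0.25 without bone 1 and -0.27 without bone 2.

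The genes whose profile over the 6 libraries lay nearest to that of each expressed member were found by the mean absolute difference of log2(FPKM + 1), each gene centred on its own mean. For *Lhfp* these were *Wls*, which carries Wnt proteins to the cell surface, *Lgmn*, a lysosomal protease, *Slc11a1*, a metal transporter of macrophages, *Sdc2*, a heparan sulfate proteoglycan, and *Marcks*, a substrate of protein kinase C. Their distances from *Lhfp* were 0.0451 to 0.0820, against a median of 1.28 over 12111 genes. *Wls*, the nearest, had an FPKM of 72.7, 44.7 and 9.22 in bone 1, 2 and 3 and 45.2, 10.5 and 11.7 in osteoblasts 1, 2 and 3. That *Wls* shared the 3 high and 3 low libraries of *Lhfp* follows from its choice by this distance and is not a separate result.

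For *Lhfpl2* the nearest were *Rtn4*, which encodes the reticulon Nogo, *Myadm*, a membrane protein of myeloid cells, *Gnai1*, an inhibitory G protein subunit, *Panx3*, a pannexin channel of bone and cartilage, and *Tnfrsf10b*, a death receptor. Their distances were 0.0642 to 0.0872. *Rtn4* had an FPKM of 41.7, 26.1 and 8.82 in bone 1, 2 and 3 and 34.0, 8.45 and 10.2 in osteoblasts 1, 2 and 3. *Lhfpl2* itself was the 318th nearest of 12111 genes to *Lhfp*, at a distance of 0.293, and *Lhfp* was the 547th nearest to *Lhfpl2*. The nearest sets of the pair shared no gene, which follows from these distances and is not a separate result. The gap between bone 1 and 2 and the 3 libraries with *Hbb-bt* above 1000 FPKM was wider for *Lhfp* than for *Lhfpl2*, and osteoblasts 1 was nearer to bone 1 for *Lhfpl2* than for *Lhfp*.

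**Figure D3:**
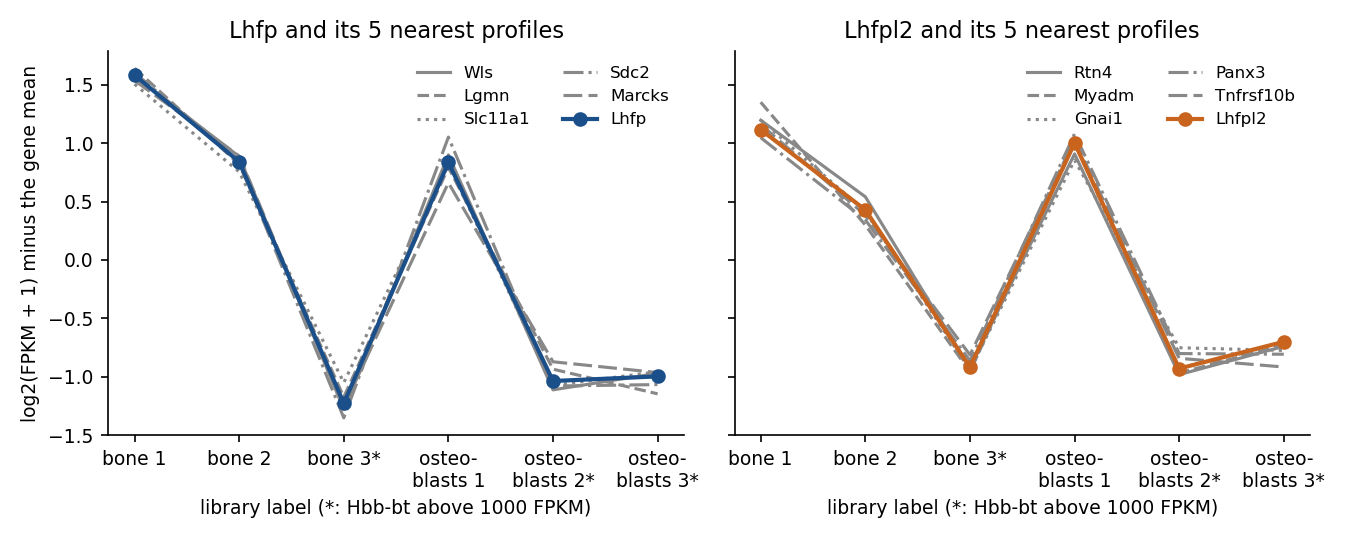
Values of log2(FPKM + 1) minus the gene's own mean in each library, for *Lhfp* (left) and *Lhfpl2* (right) in colour and for the 5 genes nearest to each in grey. Lines only join the points of a gene, an asterisk marks *Hbb-bt* above 1000 FPKM, and every gene shown is above its mean in bone 1 and 2 and osteoblasts 1. The grey genes were chosen for nearness to this profile.

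Of the wider claudin-fold relatives, 32 were listed and 31 had a named feature, of which 14 had a mean FPKM of at least 1. The 4 highest were *Emp3*, *Emp1* and *Pmp22*, of the epithelial membrane protein group, and *Nkg7*, a granule protein of cytotoxic cells. *Emp1* had an FPKM of 122, 59.9 and 9.67 in bone 1, 2 and 3 and 95.1, 17.9 and 14.1 in osteoblasts 1, 2 and 3. *Pmp22* had 39.8, 47.3 and 6.98 in bone and 27.1, 7.12 and 9.26 in osteoblasts. *Emp1* was above *Lhfp* in each library and *Pmp22* was above it in bone 2, bone 3 and osteoblasts 3, and both were high where *Lhfp* was high. *Emp3* was at 183, 94.2 and 71.7 FPKM in bone and 117, 72.6 and 68.2 in osteoblasts, a narrower range. *Nkg7* was the opposite, at 0 in bone 1 and 2 and osteoblasts 1 and at 36.4, 46.0 and 36.7 FPKM in the other 3 libraries.

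Of the 14 relatives, 7 had their 3 highest values in the same libraries as *Lhfp*, and so did 16.9% of the 12112 genes. In the reverse order, 6 had their 3 lowest values in those libraries, and so did 38.5% of the genes. *Cldn10* alone had neither order. The 7 were *Emp1*, *Emp2*, *Emp3*, *Pmp22*, *Tmem47*, *Cacng7* and *Cldn12*, and the 6 were *Nkg7*, *Cldn1*, *Cldn5*, *Cldn15*, *Tmem204* and *Cacng1*. In limma 0 of the 14 were called, as were 0% of all 12112 genes tested, so the count says nothing particular of the relatives. Their median log2 fold change was -0.20, against 0.12 over all genes tested.

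**Figure D4:**
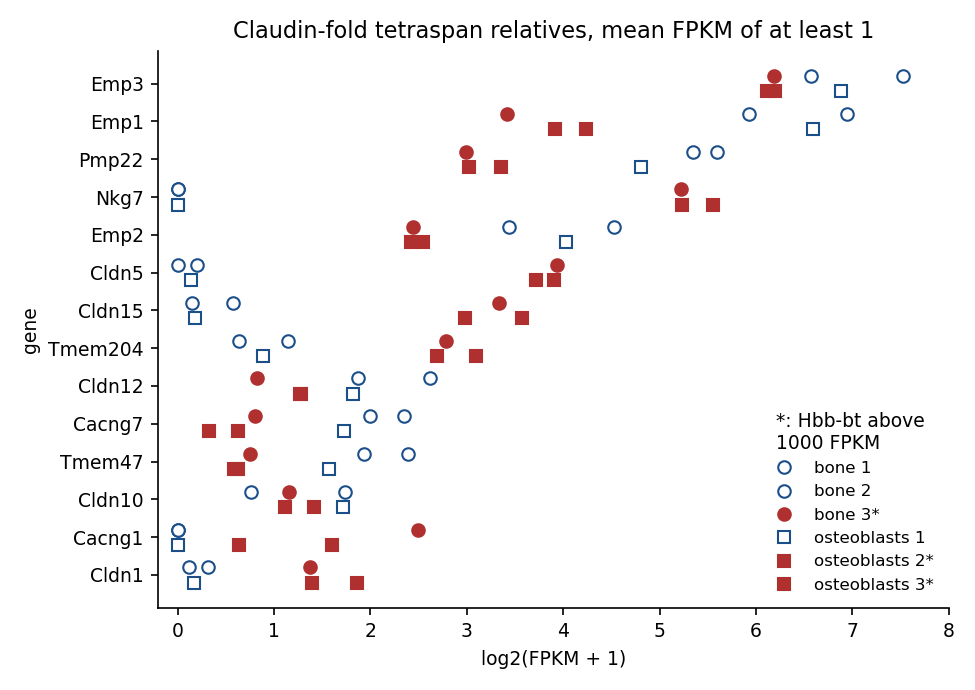
Values of log2(FPKM + 1) of the 14 claudin-fold relatives with a mean FPKM of at least 1, ordered by mean, with circles for bone and squares for osteoblasts. Filled red symbols are the libraries with *Hbb-bt* above 1000 FPKM and open blue symbols the others. The red symbols lie to the left for genes such as *Emp1* and *Pmp22* and to the right for *Nkg7*, *Cldn5* and *Cldn15*.

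Partners of *Lhfpl5*, *Lhfpl3* and *Lhfpl4* known from other tissues were read against all 48734 named genes, of which 24.9% had a mean FPKM of at least 1 and 43.4% were at 0 in all 6 libraries. Of 12 genes of hair cell mechanotransduction listed with *Lhfpl5*, 8 had a named feature and 3 of these, *Tmc1*, *Loxhd1* and *Ush1g*, were at 0 in all 6 libraries. *Tmc1* encodes a pore subunit of the complex. *Pcdh15*, the tip link cadherin, was at most 0.0868 FPKM. *Cib2*, a calcium-binding subunit that is also used outside the ear, was at 2.68 to 7.60 FPKM and was the only gene of the 8 with a mean FPKM of at least 1. *Ush1c* was at 0 in bone 1 and 2 and osteoblasts 1 and reached 3.07 FPKM in osteoblasts 3, and *Cib3* reached 0.457 FPKM there.

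Of 19 GABA-A receptor subunits and synapse partners listed with *Lhfpl3* and *Lhfpl4*, 6 were at 0 in all 6 libraries and 3 had a mean FPKM of at least 1. *Gabrb2*, a beta subunit, reached 0.800 FPKM in bone 2. *Nlgn2*, which encodes neuroligin 2, was at 2.15 to 4.74 FPKM and *Gphn*, which encodes the scaffold gephyrin, at 1.81 to 4.28 FPKM. *Clptm1*, which retains receptors in the endoplasmic reticulum, was at 22.8 to 34.6 FPKM. In limma 0 of the 3 tested genes of this list and 0 of the 1 of the hair cell list were called, as were 0% of all 12112 genes tested. *Hmga1*, a relative of the lipoma partner, was at 6.42 to 18.1 FPKM, and *Cog6*, the neighbour of *Lhfp*, at 7.07 to 13.8 FPKM, with 0 of these 2 called (all genes tested: 0%).

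Markers of several cell types were high where *Lhfp* and *Lhfpl2* were low, and others moved with them. The part of these markers in the result was not tested. The lists were summed over their named members. In the libraries with *Hbb-bt* above 1000 FPKM, 5 of 8 listed erythroid markers summed to 35226 to 49768 FPKM. Most of this sum was *Hbb-bt* itself, by which these libraries are set apart, so its contrast was fixed in advance. *Alas2*, the next highest erythroid marker, was at 732 to 910 FPKM there and at 0.0540 to 0.208 in the others. Neutrophil markers, 9 of 10 named and led by *S100a9*, summed to 14968 to 18188 FPKM in the libraries with *Hbb-bt* above 1000 FPKM. In the others the erythroid and neutrophil sums were 3.53 to 7.26 and 2.67 to 10.7 FPKM, with *Epb42* and *Elane* at 0. In the same order, 4 of 9 skeletal muscle markers, led by *Acta1*, summed to 235 to 983 FPKM against 1.60 to 3.82, all 6 endothelial markers, led by *Egfl7*, to 75.1 to 90.0 against 2.88 to 11.3, and 7 of 8 dividing cell markers, led by *Pcna*, to 285 to 346 against 35.2 to 77.2.

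Macrophage and osteoclast markers, led by *C1qa*, summed to 1108 to 1268 FPKM in the libraries with *Hbb-bt* above 1000 FPKM and to 1444 to 3078 in the others, with all 10 named. Of these, 6 had their 3 highest values in the libraries where *Lhfp* had its own, as had 16.9% of all genes tested. In reverse, 2 had their 3 lowest there, as had 38.5% of all genes tested, and 2 had neither order. The 2 in reverse order were *Acp5*, a gene of osteoclasts, and *Mmp9*. *Acp5* was at 325 to 342 FPKM in the libraries with *Hbb-bt* above 1000 FPKM and at 14.9 to 111 in the others. The 2 with neither order were *Ctsk* and *Dcstamp*, also genes of osteoclasts, so the osteoclast genes of the list did not share an order. Stromal and fibroblast markers, 8 of 12 named and led by *Col3a1*, summed to 302 to 437 FPKM against 761 to 1791. Of the 8, 3 had the order of *Lhfp* (all genes tested: 16.9%), 3 the reverse (all genes tested: 38.5%) and 2 neither. The sum was carried by *Col3a1* and *Postn*. *Dcn*, *Lum* and *Fbln1* went the other way, *Dcn* at 81.1 to 88.6 FPKM against 7.81 to 15.9. Osteocyte markers, 7 of 8 named and led by *Capg*, which other cells express too, summed to 109 to 117 FPKM against 143 to 288. This sum was set by *Capg* and *Dmp1*, while *Sost* had the reverse order, at 15.8 to 22.7 FPKM against 0.0661 to 0.198. Osteoblast markers, 8 of 10 named and led by *Col1a2*, overlapped in sum, at 5584 to 6625 FPKM against 5297 to 8574. Of the 8, 3 had the order of *Lhfp* (all genes tested: 16.9%), 1 the reverse (all genes tested: 38.5%) and 4 neither. The 3 were *Alpl*, *Tmem119* and *Ibsp*, with *Ibsp* at 43.1 to 91.3 FPKM against 986 to 1278. *Bglap2* had the reverse order, at 1641 to 1959 FPKM against 264 to 513. Adipocyte markers, led by *Fabp4*, also overlapped, at 130 to 175 FPKM against 48.3 to 263, with all 6 named. Neural and glial markers, led by *Mbp* and with all 11 named, summed to 28.3 to 36.0 FPKM against 13.4 to 27.5. Of the 3 with a mean FPKM of at least 1, 1 had the order of *Lhfp* (all genes tested: 16.9%), 1 the reverse (all genes tested: 38.5%) and 1 neither. *Tubb3* had the order of *Lhfp*, at 0.315 to 0.885 FPKM against 2.71 to 7.62, and *Mbp* the reverse. Of the 11, 2 were at 0 in all 6 libraries (all named genes: 43.4%), *Snap25* and *Olig2*. In limma 0 genes of any of these lists were called, as were 0% of all 12112 genes tested.

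The spans of some members hold other features, and the kit used did not mark strand, so that reads of overlapping genes cannot be told apart where their exons coincide. Within *Lhfp* the tables list 7 features. Summed, they had an FPKM of 2.26, 1.12 and 4.77 in bone 1, 2 and 3 and 0.392, 3.81 and 3.46 in osteoblasts 1, 2 and 3. This was 4.58%, 3.83% and 76.9% of the FPKM of *Lhfp* in bone and 1.35%, 52.7% and 46.4% in osteoblasts. The sum was thus higher in the 3 libraries where *Lhfp* was low, but not every feature was. *Gm43803* was at 0.338 and 0.315 FPKM in bone 1 and 2 and at 0.206 and 0.0812 in bone 3 and osteoblasts 2, and an unnamed feature of 232 bp made up 2.36 of the 4.77 FPKM in bone 3. Another, *Gm42901*, overlaps the start of *Lhfp* on the opposite strand and was at most 0.128 FPKM.

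**Figure D5:**
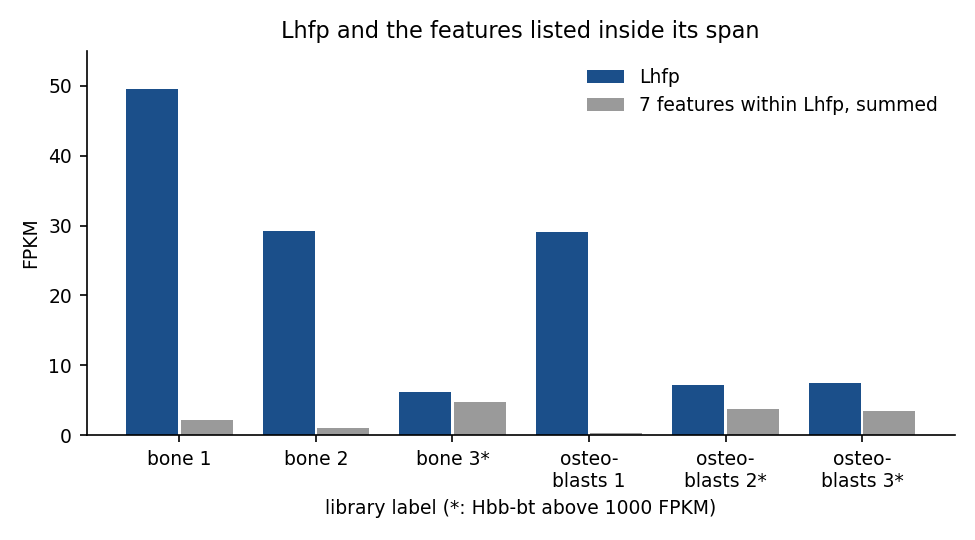
FPKM of *Lhfp* (blue bars) and of the 7 features listed inside its span, summed (grey bars), in each library, with an asterisk at *Hbb-bt* above 1000 FPKM. The grey bars reach 4.77 in bone 3 and stay at or below 2.26 in bone 1 and 2 and osteoblasts 1, and every blue bar is the taller of its library.

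Within *Lhfpl2* the antisense feature *Gm15907* was at 0.177, 0.0595 and 0.838 FPKM in bone 1, 2 and 3 and 0.190, 0 and 0.630 in osteoblasts 1, 2 and 3, far below *Lhfpl2* in each library. *Lhfpl3*, by contrast, was below a gene that overlaps it. *6030443J06Rik*, which overlaps *Lhfpl3* on the same strand, was at 0.220 to 0.774 FPKM, while *Lhfpl3* did not exceed 0.0185. No feature overlapped *Lhfpl1*, *Lhfpl4* or *Lhfpl5*. Of the 5 paralogs, *Lhfpl2* was thus the only one measured above the floor for a 1 kb transcript beside *Lhfp* in these libraries, and whether its product can act in place of that of *Lhfp* was not tested.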

How the data were processed

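The authors made libraries with a TruSeq RNA kit and deposited 1 table per library with a coverage, an FPKM and a TPM for every feature. Per the submitters' processing notes they used HISAT2 2.0.5, SAMtools 1.7, StringTie 1.3.3 and GRCm38. The deposited FPKM are scaled to all aligned reads, the deposited TPM are these rescaled, and the coverage is the average read depth along a feature. Read counts were not used here.

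Groups and replicate numbers came from the deposited labels. FPKM was summed by gene name. Depth, in aligned Gb, was read as the mode of coverage divided by FPKM over features covered more than 1 time per base. Single values were compared by exact permutation tests, two-sided, on log2(FPKM + 1), or on log2 of the ratio with a pseudocount of 0.1. Genes whose mean FPKM was 1 or more were fitted in limma 3.58.1 (R 4.3.3), by eBayes with a trend and Benjamini-Hochberg adjustment at 0.05. The fit was also run on simulated data, with less noise than *Lhfp* showed within a label. That run does not bear on how many genes could be called in these libraries. Replicates are separate samples by the series' text. Other steps used Python 3.11.15, pandas 2.3.3, numpy 2.4.6, scipy 1.17.1, Biopython 1.88 (global alignment, BLOSUM matrix, free end gaps) and matplotlib 3.10.9. Transcripts and coding sequences were those of GENCODE vM1, made on the older build NCBIM37, and were used for lengths and sequence only.

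The genes named are the 6 members, *Hbb-bt*, the 5 genes nearest in profile to each member with a mean FPKM of at least 1, the 4 highest of each list of relatives or partners, the highest of each marker list, and features overlapping a member. Other genes of those lists were named after their values were seen. The members and lists were chosen with earlier results of these data known. Listed genes without a named feature were not analysed here, among them *Lim2*, *Tmie*, *Hmga2*, *Bglap* and *Spp1*. A few genes of the lists are not reported here by name.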

Additional observations from a re-analysis of the deposited data

Results flagged for a closer look

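Features inside *Lhfp* and *Lhfpl2* carried signal above the limit that a count of 0 allows over their own span in at least 1 library, in data that no comparison used. Inside *Lhfp* the highest FPKM was 2.36 for an unnamed feature (MSTRG.39382, minus strand of Chr. 3, 53071922 to 53072153 in GRCm38), in bone 3. It was 0.879 for *Gm43804*, 0.778 for *C130075A20Rik* and 0.698 for *Gm42898*, each in osteoblasts 2. It was 0.583 for *Gm42899* in bone 3, and 0.491 for *Gm43803* and 0.395 for *Gm43805* in osteoblasts 3. Inside *Lhfpl2* it was 0.838 for *Gm15907*, in bone 3. Each of these highest values was in a library with *Hbb-bt* above 1000 FPKM. Groups of 3 libraries were not tested for outlying values.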

How the results depend on the processing

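*Lhfp*, *Lhfpl2*, their sum, the share of *Lhfp* and the ratio of *Lhfp* to *Lhfpl2* were lower in osteoblasts under every alternative run but 1. Without bone 1 the difference of *Lhfpl2* was 0.035. Leaving out each library in turn gave -1.61 to -0.207 for *Lhfp*, -1.02 to 0.035 for *Lhfpl2*, -1.35 to -0.10 for the family sum, -11.4 to -4.14 percentage points for the share and -0.657 to -0.246 for the log2 ratio. These exact tests cannot pass 0.05 with 3 libraries against 3 or fewer, so their p-values say nothing of stability. Coverage divided by depth, chosen after seeing the data, gave -0.74 for *Lhfp*, -0.20 for *Lhfpl2* and -2.0 percentage points for the share. The number of genes called by limma was 0 under each other pseudocount, filter and scaling, and 0 to 300 without 1 library (77 without bone 3 and 300 without osteoblasts 1), with neither *Lhfp* nor *Lhfpl2* among them. Of the 36 values of a member in a library, 12 were above the floor, 12 with a floor of 10 read pairs and 15 with the floor at each member's longest transcript, which was chosen after seeing the data.

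Both labels carry the replicate numbers 1 to 3. With the replicate block the differences are the same by design, and an exact permutation by sign flips, which cannot go below p = 0.25, gave 0.5 for *Lhfp*, the sum, the share and the ratio and 0.75 for *Lhfpl2*. With the block limma called 49 genes, 46 higher and 3 lower, against 0 without it, and neither *Lhfp* nor *Lhfpl2*. Across 12112 genes the deviations of same-numbered libraries correlated at 0.841, -0.747 and 0.830, so the numbers did not pair all libraries, and 3 of the 6 libraries correlated best with their own number.

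Depth limits *Lhfpl1*, *Lhfpl3*, *Lhfpl4* and *Lhfpl5*, of which levels below the floor cannot be told from 0. Without counts no interval can be given for a single FPKM.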
